A study of Mus musculus with 48 samples.

Results

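The cytosolic heat shock chaperones were followed as a list of 10 genes: Hsf1, Hspa1a, Hspa1b, Hspa8, Hsph1, Dnaja1, Dnajb1, Bag3, Hsp90aa1 and Hspb1. All 10 were found by their symbol among the 27281 genes of the RNA-Seq table, of which 18178 carry a symbol. All 10 also passed the minimum mean log2 value of 1 that left 13409 genes to test. RNA was measured in 48 samples of murine striatal progenitor cells, 3 in each of 16 conditions. In 15 conditions the cells were STHdhQ111, a line that carries mutant huntingtin and serves as a cell model of Huntington's disease, and in 1 condition they were the wild type line STHdhQ7. Both lines are labelled as strain C57BL/6 and were conditionally immortalized, and each genotype is represented by a single line. Genotype and line therefore cannot be told apart.

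Every sample, controls included, spent 24 hours in serum-free medium after seeding in serum, and the vehicle was dimethyl sulfoxide. The compounds were dissolved in dimethyl sulfoxide or in water, and the study's methods do not say which had which. For any compound dissolved in water, solvent and compound cannot be told apart. Vehicle was given to STHdhQ7 and to STHdhQ111 cells, and 14 compounds were given to STHdhQ111 cells alone. Diacylglycerol kinase inhibitor II (DKI), meclizine, selisistat, loxapine and cyproheptadine were used at 10 µM, while pizotifen was at 5 µM and cysteamine at 250 µM. Sodium butyrate was used at 1 mM, 4-deoxypyridoxine (DOP) at 4 mM, fingolimod phosphate at 250 nM, trichostatin A at 10 nM, nortriptyline at 1 nM, and nicotinamide and haloperidol at 0.5 nM. Samples were collected on 3 days at 3 times a day. Each condition has 1 sample at each of the 3 times, so the time alone is balanced between conditions. Of the 15 other conditions, STHdhQ7 vehicle and selisistat match the STHdhQ111 vehicle control in both the day and the time of every sample. For the other compounds the pairing of day with time differs from that of the vehicle control, and this pairing cannot be fully told apart from the treatment.

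Heat shock proteins keep other proteins folded. HSF1, the product of Hsf1, is the transcription factor that switches their genes on when unfolded proteins accumulate in the cytosol. HSP70 proteins bind unfolded stretches of their clients in a cycle driven by ATP. Hspa8 encodes the HSP70 that is made constantly, and Hspa1a and Hspa1b encode the nearly identical HSP70s that stress induces. J-domain proteins such as those of Dnaja1 and Dnajb1 deliver clients to HSP70 and start its ATP hydrolysis. The products of Hsph1, of the HSP110 family, and of Bag3 make HSP70 release its nucleotide and with it the client, and BAG3 also directs aggregated clients towards autophagy. Hsp90aa1 encodes the stress-inducible form of HSP90, which matures kinases and receptors. Hspb1 encodes HSP27, a small heat shock protein that holds unfolded proteins without using ATP. These chaperones are of interest in Huntington's disease because expanded huntingtin misfolds and aggregates.

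The values are the authors' normalized abundances on a log2 scale, on which a difference of 1 is a 2-fold change. They are not scaled to gene length, so levels are compared below between conditions for 1 gene and not between genes. The marker check and the sums with gene copies are exceptions, and their orders and sums across genes may partly reflect gene length. In bulk RNA, fewer cells of a type and less RNA per cell cannot be told apart. The sequencing depth is unknown because the table holds no counts.

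In the GRCm38 build, Hspa1a (chromosome 17, 34969190 to 34972156, minus strand) and Hspa1b (chromosome 17, 34956436 to 34959238, minus strand) lie next to each other. Hspb1 lies on chromosome 5 from 135887919 to 135889563 on the plus strand, Bag3 on chromosome 7 from 128523616 to 128546981 on the plus strand, and Hsph1 on chromosome 5 from 149614287 to 149636376 on the minus strand. Hsp90aa1 lies on chromosome 12 from 110690605 to 110702728 on the minus strand, Hspa8 on chromosome 9 from 40800984 to 40810087 on the plus strand and Dnajb1 on chromosome 8 from 83608193 to 83612653 on the plus strand. Dnaja1 lies on chromosome 4 from 40722150 to 40737149 on the plus strand and Hsf1 on chromosome 15 from 76477422 to 76501913 on the plus strand. Hspa1a is overlapped on the other strand by Gm20481, and Dnaja1 by Smu1 and Gm6297. The library kit keeps the strand, but whether the counting used it is not given in the sources used here.

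Reads were 50 bases long, and several of these genes share stretches of that length with other transcripts. Of the 50-base windows of Hspa1a, 60.3% occur in another gene, 58.8% in Hspa1b, and of those of Hspa1b 62.3% do. The shares were 38.6% for Hspa8, 47.5% for Hsp90aa1, 48.8% for Hspb1, 11.9% for Dnaja1 and 0.38% for Dnajb1, mostly with annotated copies that lack a symbol in the table. Hsf1, Hsph1 and Bag3 shared 0. The values of Hspa1a, Hspa1b, Hspa8, Hsp90aa1 and Hspb1 are therefore uncertain as single genes, and sums with their copies are given beside the results.

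HSF1 binds DNA at heat shock elements, rows of GAA units in alternating orientation. The promoter sequences below show where genes of the list carry exact matches to this motif. Imperfect units and other spacings were not searched, so a gene with few or no matches may still hold further elements. RefSeq promoters (GRCm38.p6, 250 bases before to 50 after a start) were held for 7 of the 10 genes, and Hsf1, Hspa8 and Hsp90aa1 had none. They were searched on both strands for 2 units in turn (GAANNTTC or TTCNNGAA, each its own reverse complement) and for 3 units (GAANNTTCNNGAA or TTCNNGAANNTTC, each of which holds a pair of overlapping 2-unit matches). A 2-unit match was found in 6 of the 7 genes, all except Dnajb1, against 17% of 27025 genes with a promoter in the table, and a 3-unit match in 1, Hsph1, against 0.662%. The 250 bases before the start of Hspa1a (chr17:34972157-34972406, minus strand), Hspa1b (chr17:34959239-34959488, minus strand) and Hspb1 (chr5:135887669-135887918, plus strand) are printed from 5′ to 3′ because these genes changed most in the comparisons below, with the 2-unit matches in capitals.
Hspa1a: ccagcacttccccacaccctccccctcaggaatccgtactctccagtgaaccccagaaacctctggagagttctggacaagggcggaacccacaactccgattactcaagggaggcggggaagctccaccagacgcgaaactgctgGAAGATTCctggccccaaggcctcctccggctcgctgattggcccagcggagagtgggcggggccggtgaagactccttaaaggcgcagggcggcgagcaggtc
Hspa1b: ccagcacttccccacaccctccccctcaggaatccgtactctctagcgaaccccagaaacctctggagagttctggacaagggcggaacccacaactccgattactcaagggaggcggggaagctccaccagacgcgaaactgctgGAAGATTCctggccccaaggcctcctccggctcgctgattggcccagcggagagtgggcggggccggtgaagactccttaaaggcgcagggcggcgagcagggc
Hspb1: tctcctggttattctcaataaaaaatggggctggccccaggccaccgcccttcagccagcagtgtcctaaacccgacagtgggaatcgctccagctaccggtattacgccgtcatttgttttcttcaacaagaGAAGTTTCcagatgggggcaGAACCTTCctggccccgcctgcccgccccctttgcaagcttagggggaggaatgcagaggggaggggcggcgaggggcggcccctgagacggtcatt

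The Hspa1a and Hspa1b sequences were 98.8% identical over these 250 bases. They differed at 3 positions, C44T, T47C and T249G, given as the Hspa1a base, the position counted from 1 at the first printed base, and the Hspa1b base. Their 1 match each has the same letters and the same place, 104 to 97 bases before the start. Hspb1 had 2 matches, GAAGTTTC and GAACCTTC, and both lie within 117 bases of the start. In Hsph1 the 3-unit match TTCTGGAAAGTTC lies inside the transcribed part, 37 to 49 bases from the first annotated start. In Bag3 the only 2-unit match, GAAGTTTC, lies from 43 to 50 bases after the start, and its 250 bases before the start hold 0 matches. Such matches are letters in a window and no measurement of binding.

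The labelled cell type was checked against markers. Of 8 neural progenitor markers, Vim was high in both lines (means of 15.42 in STHdhQ111 and 15.60 in STHdhQ7 vehicle cells), while Nes was 4.96 against 10.95, Sox2 4.81 against 8.91 and, in the other direction, Sox9 9.55 against 7.71. Of 6 mesenchymal markers, 4 reached a mean of 5 in STHdhQ111 vehicle cells, led by Col1a1 at 14.63. Acta2 was 4.57 in STHdhQ111 against 11.13 in STHdhQ7 cells, whereas Col1a2 (13.03 against 10.33) and Pdgfra (9.04 against 7.71) were higher in STHdhQ111. Some genes of the other lists were expressed, with Foxp1 at 9.99, Map2 at 8.40, Pecam1 at 8.23, Slc1a3 at 7.21 and Tubb3 at 4.52 in STHdhQ111 vehicle cells, while the neuronal genes Rbfox3 and Drd1 and the microglial gene Aif1 were below 0 in every condition. The summed level of the neural progenitor list was 15.41 to 15.53 in the STHdhQ111 and 15.58 to 15.74 in the STHdhQ7 vehicle samples, and that of the mesenchymal list 15.03 to 15.23 and 14.71 to 15.07. The sums rest mostly on the highest gene of each list. In STHdhQ111 vehicle cells the mean sums were 15.45 and 15.14, beside 15.42 for Vim and 14.63 for Col1a1 alone. They therefore hide the differences in Nes and Sox2 between the lines. With the compounds the sums moved too. The mesenchymal sum was 14.22 to 14.46 with DKI, 14.55 to 14.73 with cyproheptadine and 14.61 to 14.66 with meclizine, all below the vehicle samples, and the progenitor sum was 14.81 to 15.08, 15.14 to 15.21 and 15.19 to 15.26. These are the 3 compounds with the most calls among the 10 genes, but they were not alone. The mesenchymal sum also lay below the vehicle samples with pizotifen (14.81 to 14.96), and the progenitor sum with trichostatin A (15.20 to 15.30). Above the vehicle samples lay the mesenchymal sum with sodium butyrate, and the progenitor sum with DOP, nicotinamide, nortriptyline and cysteamine. The part of these marker differences in the chaperone results was not tested.

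Between the vehicle controls of both lines, 8 of the 10 genes differed, 3 of them higher and 5 lower in STHdhQ7 cells, while 55.8% of all tested genes were called in that comparison, 29.2% higher and 26.6% lower. The genes did not move as a block: the small heat shock protein gene Hspb1, Hspa1a and Hsp90aa1 were higher in the wild type line, and the co-chaperone genes Dnaja1, Dnajb1, Hsph1 and Bag3 were lower together with Hsf1. For each of the 8 genes the 3 samples of one line lay outside the range of the other. The sign was the same on each collection day. Both follow largely from the calls, which used the same values, and the share of all genes without overlap was not counted. The smallest two-sided exact permutation p that 3 samples against 3 allow is 0.1, so p-values come from the linear model across all genes (limma, adjusted by the Benjamini-Hochberg method). No call on these 8 genes was lost when any of the 6 samples was left out.

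Hspb1 had the largest difference of the 10 genes between the lines. Its STHdhQ7 values were 7.66, 8.13 and 8.16 and its STHdhQ111 vehicle values 6.83, 6.79 and 6.86. Hspb1 was thus 2.23-fold higher in STHdhQ7 cells (log2 difference 1.16, standard error 0.10, adjusted p = 9.89e-13), and all samples of one line lay above all of the other. Summed with its copy Hsp25-ps1, which was lower in STHdhQ7 (3.21 against 3.48), the difference was 1.07. Hspa1a stood at 7.66, 7.70 and 7.96 in STHdhQ7 and at 6.98, 6.70 and 6.91 in STHdhQ111 vehicle cells, a 1.88-fold difference (log2 difference 0.91, standard error 0.11, adjusted p = 4.78e-09). Its neighbour Hspa1b gave 10.16, 10.10 and 10.20 against 10.11, 9.92 and 10.05, and its ranges overlapped (log2 difference 0.13, adjusted p not under 0.05). Summed as 1 gene, Hspa1a and Hspa1b were 0.23 higher in STHdhQ7 cells on the log2 scale (adjusted p = 0.0195).

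Hsp90aa1 values were 13.52, 13.02 and 13.18 in STHdhQ7 and 12.72, 12.72 and 12.75 in STHdhQ111 vehicle cells. The STHdhQ7 samples were spread more widely than the STHdhQ111 samples and all lay above them (log2 difference 0.51, standard error 0.083, adjusted p = 1.98e-06). Its copy Gm12346 was also higher in STHdhQ7, 5.40 against 3.14, and the sum of both differed by 0.51. On the lower side, Bag3 stood at 8.75, 9.04 and 8.97 against 9.30, 9.13 and 9.32, a fall of 0.33 in wild type relative to mutant cells (adjusted p = 7.15e-05). Dnajb1 was lower by 0.31, Hsph1 by 0.28, Hsf1 by 0.23 and Dnaja1 by 0.23 on the log2 scale, with adjusted p between 4.53e-07 and 0.000294. Hspa8, the constitutive HSP70 gene, had overlapping ranges and a log2 difference of -0.059 (adjusted p = 0.357). The genes lower in STHdhQ7 cells differed by at most 1.26-fold, whereas Hspb1 and Hspa1a differed by 1.88-fold or more.

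Across the 14 compounds, 26 of the 140 differences from the STHdhQ111 vehicle control passed the test, 12 higher and 14 lower, in 8 compounds. All compounds were compared with the same 3 vehicle samples, so their counts are not independent. No compound moved the 10 genes in one direction. In all 26 differences the 3 treated samples lay outside the range of the 3 vehicle samples. The sign was the same on each labelled collection day that a compound has. The calls were made on these same values, so this adds no support. The share of all genes without overlap was not counted. Sample 1 of DKI and of cyproheptadine is labelled as day 3, unlike sample 1 of the vehicle control, so both compounds have no sample of day 1. With the replicate number in place of the labelled day no call changed.

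DKI, an inhibitor of diacylglycerol kinase, had the most calls, 6 of 10, with 42.3% of all tested genes called. The genes Hspa1b, Bag3, Hspb1 and Dnajb1 fell and Hsp90aa1 and Hsph1 rose. Cyproheptadine, an antihistamine and serotonin antagonist, had 5 calls (35.6% of all genes), with Hsp90aa1, Hsph1 and Dnajb1 higher and Hspa1b and Bag3 lower. Meclizine, an antihistamine of another chemical class, had 4 calls (26.8%): Hspa1b, Hspb1 and Bag3 fell and Hspa8 rose. Each of these counts exceeded what the share of all genes gives for 10 genes by 1 to 2 genes.

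The histone deacetylase inhibitors sodium butyrate and trichostatin A had 3 calls each, against 37.5% and 13.1% of all genes. In both of them Hspb1 rose and Hsph1 fell, while Hspa8 rose with butyrate and Hspa1b fell with trichostatin A. DOP, an antagonist of vitamin B6, also had 3 calls (20.1% of all genes), with Hspa8 higher and Hspa1b and Hsph1 lower. Loxapine and pizotifen had 1 call each, Hsp90aa1, which rose, against 21.9% and 17.9% of all genes. These counts lay within 2 genes of what the shares of all genes give for 10 genes.

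With the other 6 compounds limma called 0 of the 10 genes. At an unadjusted p under 0.05 there were 2 genes with cysteamine (7.83% of all genes called after adjustment), 1 with nortriptyline (3.83%), 1 with fingolimod phosphate (0.0597%), and 0 with selisistat (0.515%), nicotinamide (10.4%) and haloperidol (0%). The doses of these compounds differ by orders of magnitude, and a count of 0 does not show that the genes were unaffected.

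The counts move with single samples. Without vehicle sample 1 they were 2 for meclizine, 1 for trichostatin A and 0 for loxapine and pizotifen, without vehicle sample 2 they were 0 for loxapine and pizotifen, and without vehicle sample 3 the count for cyproheptadine was 3. They were 2 without meclizine sample 1 or 3, 3 without cyproheptadine sample 1, 1 without trichostatin A sample 1, and 0 without loxapine sample 1 or 3 or pizotifen sample 2. Of the 26 calls, 11 were kept whichever sample was left out: Hspa1b with DKI, meclizine and cyproheptadine, Bag3 with DKI and meclizine, Hsp90aa1 with cyproheptadine and DKI, Dnajb1 with DKI, Hspb1 with sodium butyrate, and Hspa8 and Hsph1 with DOP.

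Hsf1, the gene of the factor itself, passed the test with none of the 14 compounds in limma. Its differences from vehicle ran from -0.11 with cyproheptadine to 0.073 with DKI. Its level in the 48 samples was lowest in the STHdhQ7 cells, at 8.77, 8.75 and 8.72, below the 3 STHdhQ111 vehicle values of 8.92, 8.99 and 9.03. HSF1 is regulated mostly as a protein, and its activity was not measured here.

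Hspa1b was the gene that fell with most compounds, 5 of 14, and rose with 0. In the vehicle control its values were 10.11, 9.92 and 10.05. With DKI they were 8.95, 9.42 and 9.31, and they differed from the vehicle sample of the same labelled day by -0.50 to -1.10 (log2 difference -0.80, 1.74-fold lower, standard error 0.090, adjusted p = 3.06e-09). The DKI samples were also the most widely spread of any condition for this gene, as the plot of single samples shows.

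With meclizine Hspa1b stood at 9.62, 9.66 and 9.49, a fall of 0.44 (1.35-fold lower, adjusted p = 0.000274). With cyproheptadine it stood at 9.56, 9.68 and 9.69 (fall of 0.38, adjusted p = 0.000896). Trichostatin A gave 9.68, 9.62 and 9.75 and DOP 9.84, 9.58 and 9.74, falls of 0.34 (adjusted p = 0.00784) and 0.30 (adjusted p = 0.0131). Both of the latter calls rest on single samples. Without vehicle sample 1 the difference was -0.30 for trichostatin A (adjusted p = 0.066) and -0.26 for DOP (adjusted p = 0.091), and without DOP sample 2 it was -0.23 (adjusted p = 0.13). Sodium butyrate, with 9.60, 10.02 and 9.82, gave -0.21 and did not pass the test.

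Hspa1a, which shares most of its read-length windows with Hspa1b, passed the test with 0 of the 14 compounds, and its differences lay between -0.17 and 0.17. With DKI its values were 6.55, 6.91 and 6.68 against 6.98, 6.70 and 6.91 in the vehicle control, and the ranges overlapped (log2 difference -0.14). Summed as 1 gene, Hspa1a and Hspa1b fell with the same 5 compounds as Hspa1b alone, by 0.72 with DKI (adjusted p = 8.17e-09), 0.39 with meclizine, 0.35 with cyproheptadine, 0.32 with trichostatin A and 0.27 with DOP. How the reads of this pair were divided cannot be read from the table, so the sum is the safer value.

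Hspa8, the constitutive HSP70, rose with 3 compounds. With DOP its values were 13.63, 13.72 and 13.67 against 13.37, 13.35 and 13.46 in the vehicle control, a rise of 0.28 (1.22-fold, standard error 0.053, adjusted p = 0.00024). The 3 DOP samples were all above the range of every other compound except sodium butyrate. Sodium butyrate gave 13.52, 13.65 and 13.51 (rise of 0.17, adjusted p = 0.0128) and meclizine 13.56, 13.52 and 13.58 (rise of 0.16, adjusted p = 0.0187).

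The copy Gm15459, to which 34.6% of the Hspa8 windows also map, is listed at 13.58 to 14.00 over the 48 samples, so part of the Hspa8 reads may stand in its row. Summed with it, Hspa8 was 0.19 higher with DOP (adjusted p = 0.0213) and 0.17 higher with meclizine (adjusted p = 0.0332), while with sodium butyrate the difference was 0.057 and was no longer called (adjusted p = 0.492). The butyrate call was also lost without vehicle sample 2 (0.14, adjusted p = 0.075) or butyrate sample 2 (0.12, adjusted p = 0.113). For meclizine it was lost without vehicle sample 1 or 2 or meclizine sample 1 or 3, with differences of 0.14 to 0.16 and adjusted p of 0.062 to 0.097.

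Hsph1, the HSP110 gene, changed in both directions. It fell with DOP (9.59, 9.62 and 9.55 against 9.87, 9.85 and 9.72 in the vehicle control, log2 difference -0.22, adjusted p = 0.000959). It also fell with trichostatin A (9.61, 9.68 and 9.61, -0.18, adjusted p = 0.0108) and with sodium butyrate (9.68, 9.60 and 9.66, -0.17, adjusted p = 0.00555). It rose with cyproheptadine (10.02, 9.96 and 10.01, 0.18, adjusted p = 0.00395) and with DKI (10.02, 9.95 and 9.98, 0.17, adjusted p = 0.00568). Vehicle sample 3 was the lowest of the 3 controls. Without it, the Hsph1 differences were 0.12 with cyproheptadine and 0.11 with DKI (adjusted p = 0.068 and 0.095). Without vehicle sample 1 the butyrate difference was -0.14 (adjusted p = 0.054). The trichostatin A call was lost without vehicle sample 1 or 2 or trichostatin A sample 1 (adjusted p of 0.059 to 0.094).

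The J-domain gene Dnajb1 fell with DKI, where its values of 9.50, 9.49 and 9.47 were tightly grouped below the vehicle values of 9.72, 9.66 and 9.78 (log2 difference -0.23, standard error 0.048, adjusted p = 0.000117). It rose with cyproheptadine (9.84, 9.79 and 9.91, log2 difference 0.12, adjusted p = 0.0421). The cyproheptadine call was lost without vehicle sample 1 or 2 or cyproheptadine sample 1 or 3, with differences from 0.088 to 0.13 and adjusted p of 0.070 to 0.215. Dnaja1, the other J-domain gene, passed the test with 0 of 14 compounds, and its differences lay between -0.082 with trichostatin A and 0.13.

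Bag3 fell with 3 compounds and rose with 0. The vehicle values were 9.30, 9.13 and 9.32. DKI gave 8.65, 8.86 and 8.75, which is 1.41-fold lower (log2 difference -0.49, standard error 0.068, adjusted p = 2.25e-07), and meclizine gave 8.99, 9.01 and 8.95 (-0.26, adjusted p = 0.00299). With cyproheptadine the values were 8.94, 9.08 and 9.12, just below the lowest control (-0.20, adjusted p = 0.0213). The cyproheptadine call was lost without vehicle sample 1 (-0.18, adjusted p = 0.077), vehicle sample 3 (-0.15, adjusted p = 0.131) or cyproheptadine sample 1 (-0.15, adjusted p = 0.145). Bag3 and Hspa1b thus fell together with DKI, meclizine and cyproheptadine, whereas DOP and trichostatin A changed Hspa1b but gave -0.013 and -0.061 for Bag3, which did not pass the test.

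Hsp90aa1 rose with 4 compounds: cyproheptadine, pizotifen, loxapine and DKI. Nortriptyline, like the first 3 a tricyclic drug but given at 1 nM, gave a log2 difference of 0.0038 (adjusted p = 0.988). The 3 vehicle values were close together, at 12.72, 12.72 and 12.75. With cyproheptadine Hsp90aa1 reached 13.31, 13.16 and 13.14 (1.39-fold, log2 difference 0.47, standard error 0.084, adjusted p = 2.55e-05), beside a mean of 13.24 in STHdhQ7 vehicle cells. DKI gave 13.17, 13.09 and 12.95 (0.34, adjusted p = 0.00117), pizotifen 12.96, 13.08 and 12.94 (0.27, adjusted p = 0.022) and loxapine 13.03, 12.90 and 13.03 (0.25, adjusted p = 0.0251). The ranges of these 4 conditions did not overlap with the vehicle samples. The loxapine call was lost without vehicle sample 1 or 2 or loxapine sample 1 or 3 (0.23 to 0.25, adjusted p of 0.068 to 0.097), and the pizotifen call without vehicle sample 1 or 2 or pizotifen sample 2 (0.22 to 0.26, adjusted p of 0.063 to 0.122). With other compounds of the same collection slots as the reference, pizotifen gave 0.18 (adjusted p = 0.084). Summing Hsp90aa1 with Gm12346 changed no call.

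Hspb1 rose with both histone deacetylase inhibitors and fell with both compounds of Group B, the study's name for meclizine and DKI. Sodium butyrate gave 7.49, 7.75 and 7.46 against 6.83, 6.79 and 6.86 in the vehicle control (1.67-fold, log2 difference 0.74, standard error 0.10, adjusted p = 3.51e-07). Trichostatin A gave 7.29, 7.03 and 7.30 (1.30-fold, log2 difference 0.38, adjusted p = 0.00867). Both sets lay above all vehicle samples, and their doses of 1 mM and 10 nM differ, so the sizes were not compared. The trichostatin A call was lost without its sample 1 or 3 (0.33 each, adjusted p = 0.073 and 0.051).

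With meclizine Hspb1 stood at 6.57, 6.50 and 6.54 (log2 difference -0.29, adjusted p = 0.0277) and with DKI at 6.52, 6.55 and 6.49 (-0.31, adjusted p = 0.0131). These 6 values are all lower than the 3 vehicle values. The DKI call was lost without vehicle sample 3 (-0.28, adjusted p = 0.052) and the meclizine call without any of 5 of the 6 samples, all except vehicle sample 2 (-0.31 to -0.27, adjusted p of 0.052 to 0.085). Summed with Hsp25-ps1, all 4 compounds were still called, with differences of 0.71 for sodium butyrate, 0.35 for trichostatin A, -0.27 for meclizine and -0.29 for DKI.

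**Figure D1:**
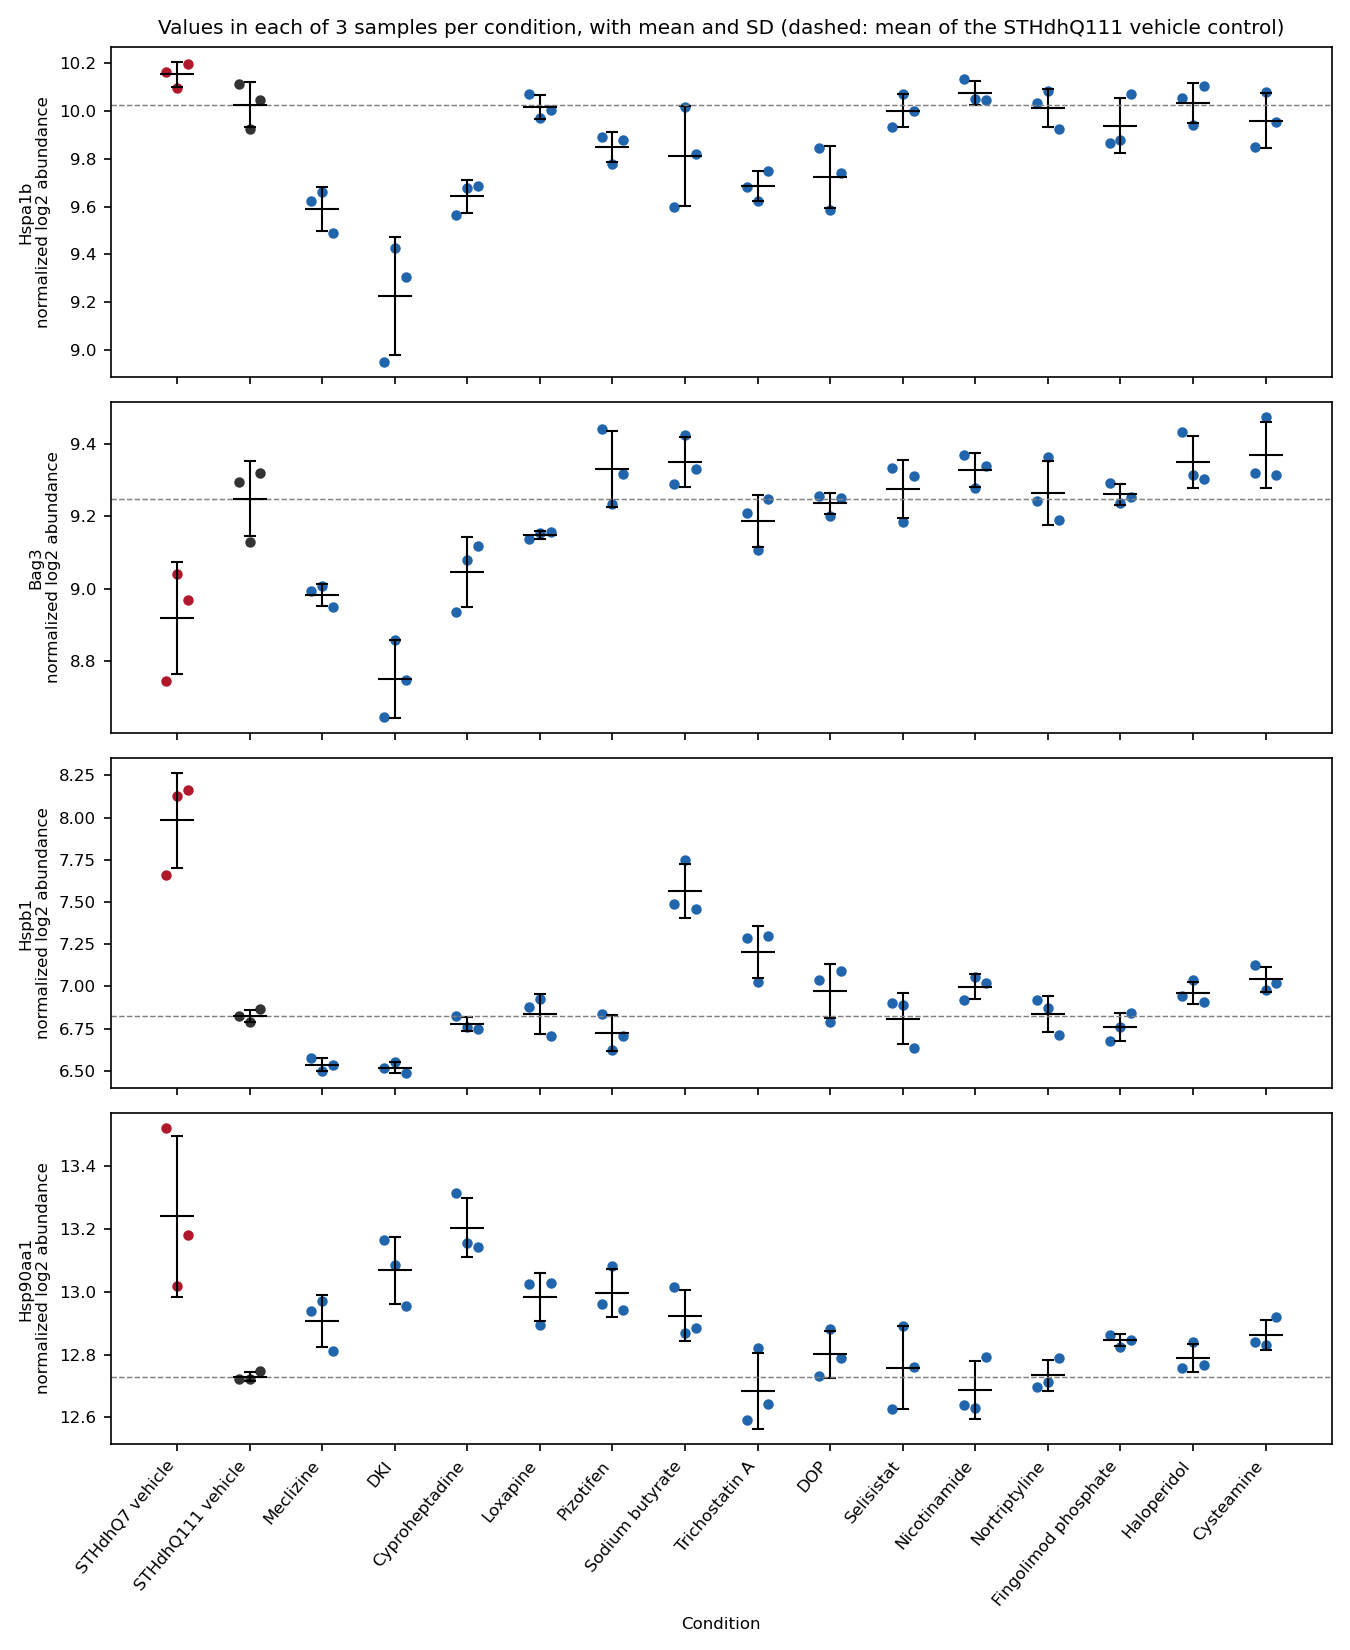
Normalized log2 abundance of Hspa1b, Bag3, Hspb1 and Hsp90aa1 in each of 3 samples per condition (points), with the mean and SD (bars) and the mean of the STHdhQ111 vehicle control (dashed line). The DKI samples are the lowest for Hspa1b (8.95 to 9.42) and, within the STHdhQ111 line, for Bag3 (8.65 to 8.86, with 1 STHdhQ7 sample at 8.75 among them), and for Hspb1 the STHdhQ7 and sodium butyrate samples stand above all others.

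The study placed cyproheptadine, loxapine and pizotifen in Group A and meclizine and DKI in Group B. In its clustering of the RNA data these 5 compounds lay together, apart from the vehicle samples. The set is therefore not independent of the RNA values compared here. Only its split into the groups came from metabolite profiles of treated cells. The comparison covers only these 5 compounds, since the spread is that between samples. Of the 10 genes, 7 differed between the groups (41.3% of all tested genes), 5 higher (19.9%) and 2 lower (21.4%) in Group A. Higher in Group A were Hspa1b (log2 difference 0.43), Bag3 (0.31), Hspb1 (0.25), Dnajb1 (0.23) and Dnaja1 (0.14), and lower were Hspa8 (-0.14) and Hsf1 (-0.095). The adjusted p ran from 1.02e-07 for Dnajb1 to 0.0195 for Hsf1. The paper calls the groups almost inseparable by RNA profile, whereas 41.3% of all tested genes were called between them here. The reason for this was not tested.

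For Dnajb1 the 9 Group A samples lay between 9.68 and 9.91 with a median of 9.79, and the 6 Group B samples between 9.47 and 9.68 with a median of 9.50. The lowest Group A sample lay just above the highest Group B sample. For Hspb1 the Group A samples ran from 6.62 to 6.93 (median 6.76) and the Group B samples from 6.49 to 6.57 (median 6.53). Dnaja1 and Hspa8 were likewise separated between the groups without overlap. How many of all tested genes separate the groups in this way was not counted. For Hspa1b the Group A samples ran from 9.56 to 10.07 (median 9.88) and the Group B samples from 8.95 to 9.66 (median 9.46), and for Bag3 from 8.94 to 9.44 (median 9.15) and from 8.65 to 9.01 (median 8.90). The overlap in both genes is with cyproheptadine, whose samples were the lowest of Group A. The Hsf1 ranges overlapped too, and its call was lost without meclizine sample 2, DKI sample 1 or 3 or pizotifen sample 3 (adjusted p of 0.054 to 0.058). Hsp90aa1 was called in all 3 compounds of Group A and in DKI, and its difference between the groups was 0.073 (95% interval -0.037 to 0.18).

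**Figure D2:**
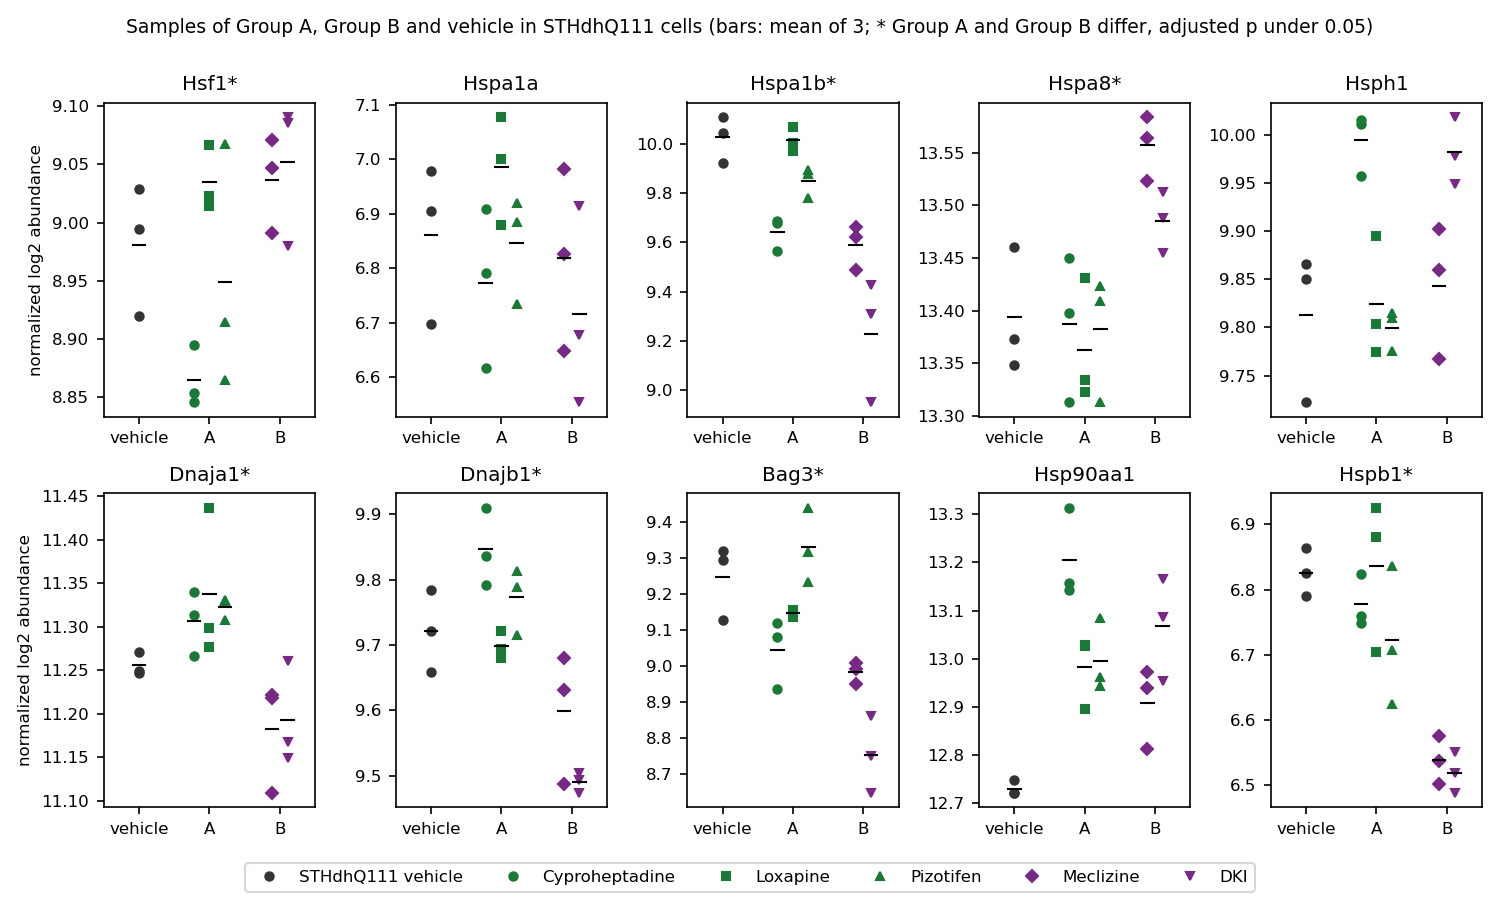
Normalized log2 abundance of the 10 genes in the samples of the STHdhQ111 vehicle control, of Group A (cyproheptadine, loxapine, pizotifen) and of Group B (meclizine, DKI), each point a sample and each bar the mean of 3, with an asterisk where Group A and Group B differ. Dnajb1, Hspb1, Dnaja1 and Hspa8 separate the groups without overlap, while for Hspa1b and Bag3 the cyproheptadine samples reach down to the meclizine samples.

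Cyproheptadine and loxapine are both tricyclic drugs given at 10 µM, the former built on a carbocyclic middle ring with a piperidine, the latter on a dibenzoxazepine with a piperazine. Of the 10 genes, 4 differed between them (10.5% of all tested genes). Hspa1b was lower with cyproheptadine (9.56, 9.68 and 9.69 against 10.07, 9.97 and 10.00, log2 difference -0.37, standard error 0.090, adjusted p = 0.00527), and this call held without any of the 6 samples. Hsf1 was also lower (-0.17, adjusted p = 0.0316), and Hsph1 (0.17, adjusted p = 0.0218) and Dnajb1 (0.14, adjusted p = 0.0442) were higher. These 3 calls were lost without single samples: Hsf1 without cyproheptadine sample 1 or 3 or any loxapine sample, Hsph1 without sample 1 or 3 of cyproheptadine or 1 or 2 of loxapine, and Dnajb1 without sample 1 or 3 of cyproheptadine or any of loxapine (adjusted p of 0.055 to 0.201), and the count then fell to as low as 1. For Hsp90aa1, which rose with both drugs, the difference was 0.22 with a 95% interval of 0.049 to 0.39 and an adjusted p of 0.0878. For Bag3 it was -0.098 (95% interval -0.24 to 0.041). Pizotifen, in which a thiophene replaces a benzene ring of cyproheptadine, was given at 5 µM, and its values stand beside the others without a comparison: Hspa1b at 9.89, 9.78 and 9.88, Bag3 at 9.44, 9.23 and 9.32 and Hsp90aa1 at 12.96, 13.08 and 12.94.

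Meclizine and DKI, both at 10 µM, differed in 2 of the 10 genes (8.11% of all tested genes). Hspa1b was 0.36 higher (adjusted p = 0.00843) and Bag3 0.23 higher (adjusted p = 0.0316) with meclizine than with DKI, and in both genes no meclizine sample reached down to a DKI sample. Both calls depend on DKI sample 1. Without it the differences were 0.23 for Hspa1b (adjusted p = 0.194) and 0.18 for Bag3 (adjusted p = 0.257). The Hspa1b call was also lost without meclizine sample 2 (adjusted p = 0.055), and the Bag3 call without any meclizine sample or DKI sample 3 (adjusted p of 0.065 to 0.108), and the count was then 0 to 2. The other 8 genes did not pass the test, with 95% intervals such as -0.19 to 0.22 for Hspb1 and -0.11 to 0.10 for Dnaja1.

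The wider chaperone network was described through lists of genes from other compartments and families, by counts of called genes and by medians. Over all tested genes the median differences from vehicle were near 0, between -0.0058 and 0.016. Among 10 mitochondrial chaperone and protease genes, 8 rose with DKI (median log2 difference 0.56), 7 with meclizine (0.40) and 8 with cyproheptadine (0.34), with 1 lower in the last. Of those with the largest values, chosen after they were seen, Hspa9, the HSP70 of mitochondria, rose by 1.13 with DKI, 0.89 with meclizine and 0.64 with cyproheptadine. Hspd1, the mitochondrial HSP60, rose by 0.98, 0.68 and 0.57 and Lonp1, a mitochondrial protease, by 1.02, 0.72 and 0.43. In the same 3 conditions the cytosolic Hspa1b and Bag3 fell, but the list also rose in part where Hspa1b did not fall: 7 genes were higher and 1 lower in STHdhQ7 cells (median 0.25), 4 rose with loxapine (0.19), and 4 rose and 1 fell with pizotifen (0.17). The shares of all tested genes called stand above, 42.3% for DKI, 35.6% for cyproheptadine, 26.8% for meclizine, 55.8% for STHdhQ7, 21.9% for loxapine and 17.9% for pizotifen. All these comparisons share the vehicle samples, so these are values side by side and not independent replications.

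Among 16 ER chaperone genes, 15 rose with cyproheptadine (median 0.46), 14 with pizotifen (0.30), 13 with loxapine (0.27) and 8 each with meclizine (0.15) and DKI (0.15), the last with 1 lower, and 13 were higher in STHdhQ7 cells (0.44). Among 11 target and pathway genes of ATF4 and CHOP, the factors of the integrated stress response, all 11 rose with meclizine, DKI, cyproheptadine and loxapine and 10 with pizotifen, and 9 were higher in STHdhQ7 cells. Of the same 11 genes, 6 rose with sodium butyrate (37.5% of all tested genes called), 3 with trichostatin A (13.1%) and 1 with cysteamine (7.83%), and 0 fell. The genes with the largest differences of all lists came from this group. Trib3, a pseudokinase gene induced by ATF4 and CHOP, rose by 3.00 with DKI, 2.68 with meclizine and 2.15 with cyproheptadine, and Chac1, a glutathione-degrading enzyme, by 2.12, 1.79 and 1.95. The medians of the 10 cytosolic genes in these 3 conditions were -0.10, -0.057 and -0.027. For the other comparisons of this paragraph, the shares of all tested genes called are those given beside the mitochondrial list.

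**Figure D3:**
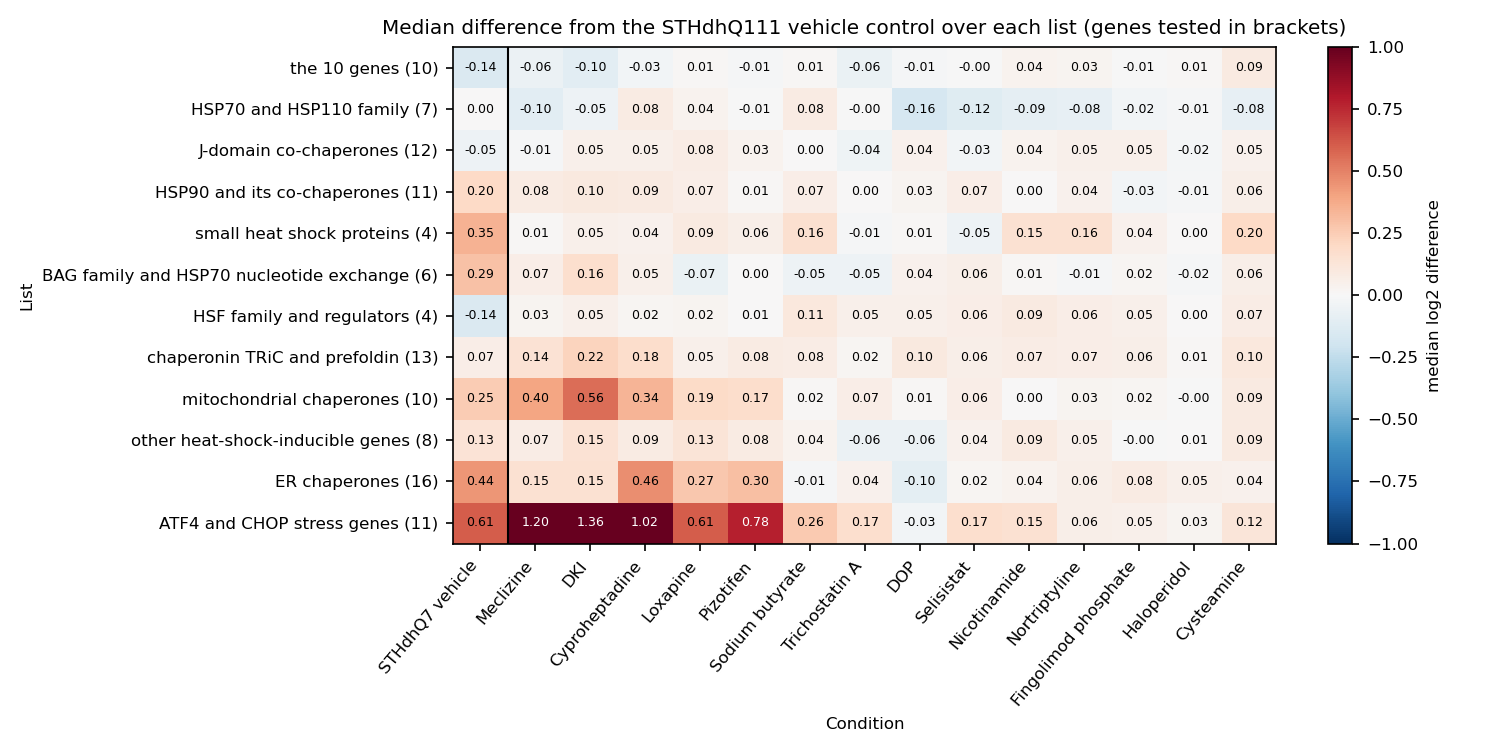
Median log2 difference from the STHdhQ111 vehicle control over the 10 cytosolic chaperone genes (top row) and over 11 other lists (rows, with the number of genes tested in brackets) in STHdhQ7 cells and with 14 compounds (columns). The ATF4 and CHOP list (1.36 with DKI), the mitochondrial list (0.56 with DKI) and the ER list (0.46 with cyproheptadine) show the largest medians, and the medians of the 10 genes lie between -0.14 and 0.09.

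Closer relatives of the 10 genes were described by family. The shares of all tested genes called were 55.8% for STHdhQ7, 42.3% for DKI, 35.6% for cyproheptadine and 26.8% for meclizine. They were 37.5% for sodium butyrate, 20.1% for DOP and 13.1% for trichostatin A. Several counts below lie near these shares, such as 4 of 12 J-domain genes with cyproheptadine. Of 11 HSP90 co-chaperone and family genes, 5 rose with meclizine, 4 with cyproheptadine and 4 with DKI, where 1 fell, and 6 were higher in STHdhQ7 cells. Of 12 further J-domain genes, 4 rose with cyproheptadine, 3 rose and 1 fell with meclizine, and 3 rose and 2 fell with DKI. Of 4 other small heat shock protein genes, Cryab, the gene of alpha B-crystallin and a partner of Hspb1, fell by 0.78 with DKI and 0.65 with meclizine, in which Hspb1 also fell, by 0.49 with trichostatin A, in which Hspb1 rose, and by 0.45 with cyproheptadine, in which Hspb1 did not pass the test. In STHdhQ7 cells Cryab was 0.55 and Hspb6 0.85 higher. Of 7 further HSP70 and HSP110 genes, 3 fell with DOP, in which Hspa8 rose, among them Hspa14, a ribosome-associated HSP70 (-0.35). Of 6 BAG family and nucleotide exchange genes, 2 rose with meclizine, 2 rose and 1 fell with DKI, and 1 rose and 1 fell with cyproheptadine. In STHdhQ7 cells 4 of these 6 were higher and 1 lower. Among 4 genes of the HSF family and its regulators, Hsf4 was 0.91 and Hsbp1 0.22 lower in STHdhQ7 cells. Hsf2, which encodes another heat shock factor, rose with cyproheptadine (0.24), trichostatin A (0.17) and sodium butyrate (0.15), and Hsf2bp rose with sodium butyrate (0.11), while 0 of the 4 genes were called with any other compound. Of 8 other genes that heat shock induces, 4 rose with DKI, 2 with meclizine and 3 with cyproheptadine, where 1 fell. In STHdhQ7 cells 4 of these 8 were higher and 2 lower.

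Over the means of the 16 conditions, after removal of collection-day effects, the 10 genes did not follow a common pattern. The 45 pairwise correlations ran from -0.79 for Hspb1 with Hsph1 to 0.72 for Dnaja1 with Dnajb1, with a median of -0.099. They exceeded 0.5 in 7 pairs and lay under -0.5 in 6. Dnajb1 with Bag3 gave 0.67, Hspa1a with Hspb1 0.68, Hspa1b with Bag3 0.59, Bag3 with Hsp90aa1 -0.64 and Hspa1a with Hspa1b 0.57. The points share the control line, the days and the normalization, and the STHdhQ7 condition weighs strongly in several pairs, so these values are a description.

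**Figure D4:**
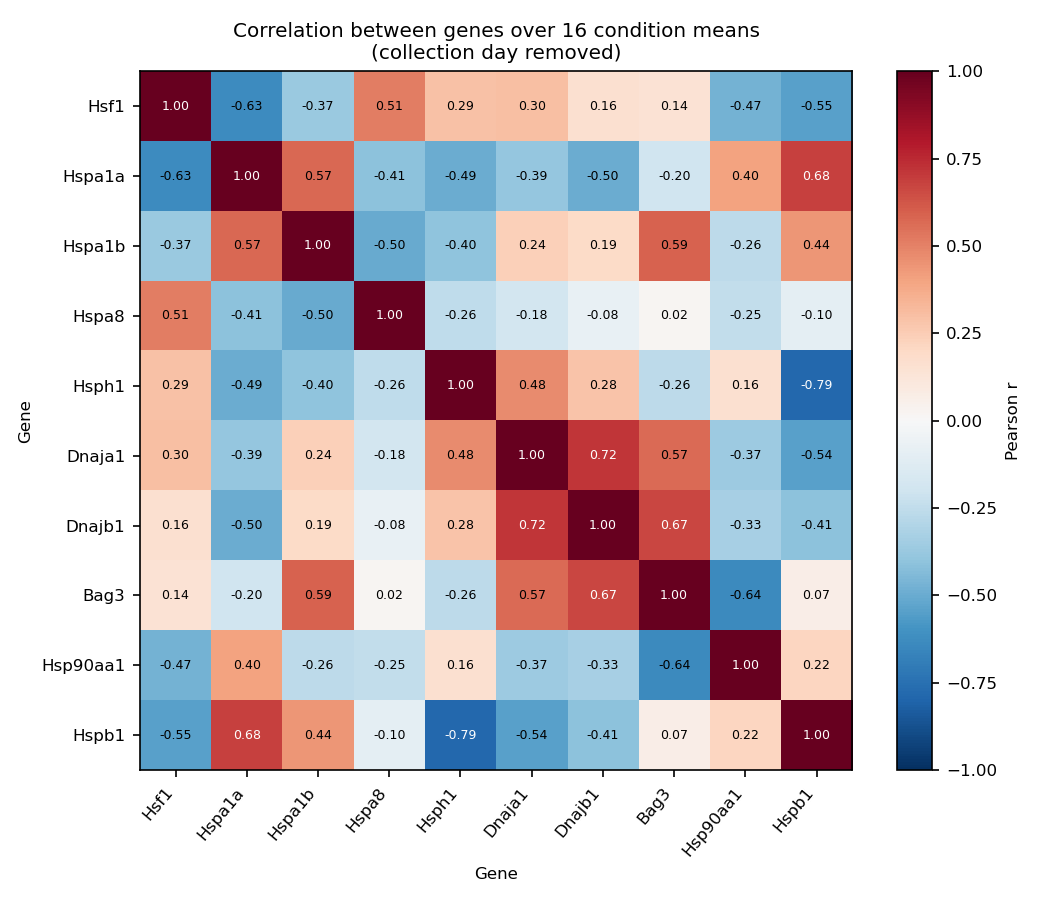
Pearson correlation between each pair of the 10 genes over the means of 16 conditions, after removal of collection-day effects. Dnaja1, Dnajb1 and Bag3 form a positive block (0.57 to 0.72), and Hspb1 with Hsph1 is the most negative pair (-0.79).

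Over the 15 conditions of the STHdhQ111 line, the level of Bag3 ran against the mean of the mitochondrial chaperone list (Pearson r = -0.92, Spearman rho = -0.54), as did Hspa1b (-0.84 and -0.67). Without the DKI and meclizine means, the farthest from the median, r was -0.67 for Bag3 and -0.49 for Hspa1b. Hsp90aa1 ran with the ER chaperone list (0.86 and 0.63, and 0.73 without cyproheptadine and pizotifen). These pairs are a selection of the genes and lists compared, and the links were not specific to a single list. Hsp90aa1 also ran with the ATF4 and CHOP list (0.81 and 0.65, and 0.89 without DKI and meclizine). With the mitochondrial list it gave 0.70 and 0.62, and 0.85 without the same means. Bag3 (-0.82 and -0.42, and -0.55 without them) and Hspa1b (-0.75 and -0.56, and -0.42) ran against the ATF4 and CHOP list too. All are descriptions across conditions that share days and normalization.

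Among the 10724 tested genes whose mean reached 5, the patterns closest to each chaperone over the 16 condition means were sought by Pearson correlation. For Hspb1 they were Stom (0.98) and Cotl1 (0.97), for Hspa1a Ppp4c (0.96) and Abhd16a (0.96), and for Hspa1b Jup (0.96) and Irs1 (0.95). For Hsp90aa1 they were Clcc1 (0.94) and Smad7 (0.93), for Bag3 Gpsm2 (0.94) and Lasp1 (0.91), and for Hspa8 Rpl3 (0.92) and Krcc1 (0.89). Dnaja1 was closest to Fam180a (0.92) and Pnn (0.92), Dnajb1 to Aldh9a1 (0.92) and Rfc5 (0.89), Hsph1 to Ufd1l (0.91) and Taf1a (0.90) and Hsf1 to Ssh3 (0.91) and 2210016L21Rik (0.89). None of these genes is in the chaperone and stress lists, and each is the best of many candidates.

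In the order of condition means, STHdhQ7 cells were at the end of the scale for 9 of the 10 genes. They were highest for Hspa1a (7.77), Hspa1b (10.15), Hsp90aa1 (13.24) and Hspb1 (7.98) and lowest for Hsf1 (8.75), Hspa8 (13.34), Hsph1 (9.54), Dnaja1 (11.03) and Dnajb1 (9.41). STHdhQ7 is the only other line, and 55.8% of all tested genes were called between the vehicle controls. How many of all genes have STHdhQ7 at an end was not counted. Hspa1b and Hspa8 were not called between the lines. Among the 9, only Hspa1a and Hsf1 had STHdhQ7 samples without overlap with the neighbouring condition. Among STHdhQ111 conditions DKI was lowest for Hspa1b (9.23), Hspb1 (6.52) and Bag3 (8.75) and DOP highest for Hspa8 (13.67). Neighbours in these orders mostly could not be told apart, since 13 to 15 of the 15 neighbouring pairs had overlapping samples in every gene. The condition means spread most for Hspb1 (range 1.46) and Hspa1a (1.08) and least for Hsf1 (0.31), Hspa8 (0.34) and Dnaja1 (0.36).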

How the data were processed

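RNA-Seq of 48 samples was analysed, 3 in each of 16 conditions, grouped by their labels. The authors extracted polyA RNA, trimmed single-end 50-base reads (Trimmomatic 0.36), aligned them to the GRCm38.p5 transcriptome, quantified them with RSEM and modelled them with DESeq2. The authors deposited normalized values per gene and sample that behave as log2 abundances, the transformation not being given in the sources used here. They run from -2.343 to 18.62 and hold no counts, so the depth per sample is unknown and count models were not used.

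The values were used as deposited. Terms for condition and for day of collection, following the study's methods, were fitted to all samples for the 13409 genes that carry a symbol and reach a mean log2 value of 1 (limma 3.58.1, R 4.3.3, trended moderated variances, 30 residual degrees of freedom). P-values were two-sided and adjusted by the Benjamini-Hochberg method over all tested genes within each of 18 comparisons, and an adjusted p under 0.05 was called. Labels give each sample a collection day and time but do not say whether the samples of a condition came from separate cultures, so p-values measure the spread between these collections. The procedure was tested on simulated data.

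The 10 genes, the lists and the tests were chosen with earlier results of these data known. Some named list genes were, per comparison, among up to 5 called genes with the largest difference and the same direction in every sample. Others, such as Hspa9, Hspd1, Cct2, Pfdn6 and Hsf2, fell outside this rule and were named with their values in view. Nearest patterns were the 2 best Pearson correlations per gene among 10724 genes. Windows of 50 bases were matched between GENCODE transcripts, and promoters came from RefSeq. The replicate number and the collection day did not pair samples: after removal of condition means, samples of the same day had a mean correlation of -0.055 and others of 0.0279, and 9 of 120 condition pairs exceeded 0.1. Alternatives were other filters, omission of the day, the replicate number in its place as a block, an added term for collection time, only the compared groups, rescaling, untrended variances, genes without symbols, slot-matched references, Hspa1a summed with Hspa1b, each sample left out and, added after seeing the data, sums with annotated copies. Plots were made in Python 3.11.15 (matplotlib 3.10.9).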

Additional observations from a re-analysis of the deposited data

How the results depend on the processing

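No called difference changed its sign under any alternative, and a sign was read only where the main model called it. Filters on low values, untrended variances, genes without symbols and rescaling changed at most 1 of the 180 differences each. Without a collection day term 2 more were called, and with the collection time as a further term 2 were lost, both of Dnajb1, for cyproheptadine against vehicle (adjusted p = 0.051) and against loxapine (adjusted p = 0.058). The fit with the replicate number as a block in place of the day gave the same count in every comparison (8 for STHdhQ7, 6 for DKI, 5 for cyproheptadine, 4 for meclizine, 7 for Group A against Group B) and changed no call. With only the compared groups in the fit, which leaves few samples to estimate the spread, 12 calls were lost and 1 was gained. Counts of called genes were 1 for sodium butyrate, 3 for cyproheptadine, 2 for pizotifen, 1 for cyproheptadine against loxapine and 0 for meclizine against DKI. The other lost calls were Hspa8 with meclizine (adjusted p = 0.185) and Hsph1 with trichostatin A (adjusted p = 0.109) and with DKI (adjusted p = 0.065). With compounds of the same collection slots as the reference, the count was 6 for sodium butyrate, adding Hspa1b (-0.23), Hsp90aa1 (0.21) and Dnaja1 (-0.18), and 0 for pizotifen; the cause was not tested. With 1 sample left out in turn, counts ran from 8 to 8 for STHdhQ7, 2 to 4 for meclizine, 2 to 3 for sodium butyrate, 3 to 5 for cyproheptadine, 0 to 1 for loxapine and for pizotifen, 2 to 3 for DOP, 1 to 3 for trichostatin A, 4 to 6 for DKI, 6 to 7 for Group A against Group B, 1 to 4 for cyproheptadine against loxapine and 0 to 2 for meclizine against DKI, and stayed at 0 for the other 6 compounds. With Hspa1a and Hspa1b summed, 9 differences of either gene that were not called became so, 8 of Hspa1a and, for STHdhQ7, 1 of Hspa1b. With unknown depth, no limit from counting error can be given, and differences under about 0.1 on the log2 scale are near the spread left by the model for a typical gene (median residual SD 0.086).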

Other observations

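Outside the 10 genes, the cytosolic chaperonin TRiC, the ring that folds actin and tubulin, and prefoldin, which hands it clients, had more called genes with DKI, cyproheptadine and meclizine than with the other compounds. Of 13 tested subunit genes, 9 were higher and 0 lower with DKI (median log2 difference 0.22), 9 and 0 with cyproheptadine (0.18) and 5 and 0 with meclizine (0.14), while 42.3%, 35.6% and 26.8% of all tested genes were called in these comparisons. With loxapine 0 of the 13 passed limma's adjusted p, with pizotifen 1 did, and with sodium butyrate and DOP 3 each and with cysteamine 2 rose and 0 fell. In STHdhQ7 cells 5 were higher and 2 lower. Chosen after their values were seen, Cct2 rose by 0.35 with DKI, 0.28 with cyproheptadine and 0.30 with meclizine, and Pfdn6 by 0.40 with DKI. All 3 conditions share the vehicle samples. Beyond these, Sqstm1, the gene of the autophagy receptor p62, and Hmox1, the inducible heme oxygenase, also chosen after their values were seen, were among the stress genes with the largest differences. With DKI they rose by 1.16 and 1.42 and with meclizine by 0.91 and 0.92, against 0.45 and 0.40 with cyproheptadine.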
